A study of Sus scrofa with 6 samples.

Results

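Short intronic circRNAs of the boar testis are described here. They were taken from a table of 4350 circRNAs with back-splice reads, of which 1798 were intronic. This table is a part of the study's circRNAs, with exonic ones from chromosomes 7, 8, 12 and 13 only, and the others were not analysed here. An intronic circRNA was included if it spanned no more than 300 nt from start to end and shared neither end, on its chromosome and strand, with another intronic circRNA. Those of PTBP1 and MOV10L1 were left out, which removed 1 further circRNA. The rule gave 423 of the 1798 intronic circRNAs. They are compared with the 892 intronic circRNAs over 300 nt that also shared no end and came from other genes than these, called the long intronic circRNAs. The study compared testes of Landrace boars before and after sexual maturity, with 3 libraries of the Piglet-D30 group (30 days old) and 3 of the Adult-D210 group (210 days old). Total RNA was depleted of ribosomal RNA and treated with RNase R, an enzyme that degrades linear RNA, before sequencing, so linear transcripts of the host genes were not measured and the tissue was not checked against marker genes.

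A known origin of intronic circRNAs is an intron cut out as a lariat, a loop closed between the first base of the intron and the branch point adenosine near its other end. Most lariats are opened by a debranching enzyme and degraded, and those that escape can persist as circles once the tail behind the branch point has been trimmed. Such circles are known mainly from the nucleus, and some have been linked to transcription of their own gene. Which of the circRNAs described here came from lariats was not tested.

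Mapped reads were 37364412, 43625471 and 43424224 in Piglet-D30 replicates 1 to 3 and 49179118, 40452590 and 48801540 in Adult-D210 replicates 1 to 3. Back-splice reads of the table were 33091, 18445 and 18618 in the Piglet-D30 libraries against 23583, 14305 and 12701 in the Adult-D210 libraries. Piglet-D30 replicate 1 stood apart, with the most back-splice reads from the fewest mapped reads.

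The length of the short intronic circRNAs ran from 119 to 300 nt (median 217 nt, quartiles 180 and 257 nt), and 33 of them were no longer than 150 nt. The shortest was ciRNA1076 of UNK, which encodes a zinc finger protein, at chr12:5551611-5551729 on the minus strand (build Sscrofa10.2, as for all positions), with 1 read in Piglet-D30 replicate 3. Of the 9 that reached 300 nt, the longest named is ciRNA57 of ENSSSCG00000029170 (ZNF566 in the gene name table), at chr6:41350373-41350672 on the plus strand. Just inside the limit, at 291 to 300 nt, lay 29 circRNAs with 61 reads and a median of 1 read each, and just outside, at 301 to 310 nt, lay 15 with 32 reads and a median of 2. All 423 began at the first base of the intron listed for them, as did all 892 long ones. Their introns were short as well (median 256 nt), and 315 circRNAs (74.5%) lay in an intron of no more than 300 nt. The largest intron had 41840 nt. The genes of 253 lay on the plus strand and those of 170 on the minus strand. Chromosomes 2 and 6 carried 46 each (10.9%), against 13.0% and 8.62% of all intronic circRNAs, and chromosome X carried 8. On chromosomes 7, 8, 12 and 13, where the table also held exonic circRNAs, lay 112 short intronic circRNAs, of which 22 shared the host gene with an exonic circRNA and 8 lay inside the span of one.

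Where the circles ended in their intron fell into separate ranges. The distance from the 3′ end of a circRNA to the 3′ end of its intron is called the tail here. A tail of 15 to 50 nt, the range in which mammalian branch points usually lie, was the most frequent, in 199 short intronic circRNAs (47.0%). Within it the median was 25 nt with quartiles of 21 and 29 nt, and 25 nt was also the most frequent single value, in 21 circRNAs. The whole intron, with a tail of 0 to 5 nt, was covered by 120 (28.4%), and 84 of these ended exactly at its last base. Tails of 6 to 14 nt were rare, in 18 (4.26%). The remaining 86 (20.3%) ended 60 to 41573 nt before the end of the intron, the median being 1135 nt, and for 44 the tail was over 1000 nt. Among the long intronic circRNAs the order of the first 2 classes was the opposite, with 421 (47.2%) covering the whole intron, 3 of them ending up to 3 nt beyond it, and 287 (32.2%) with a tail of 15 to 50 nt.

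**Figure D1:**
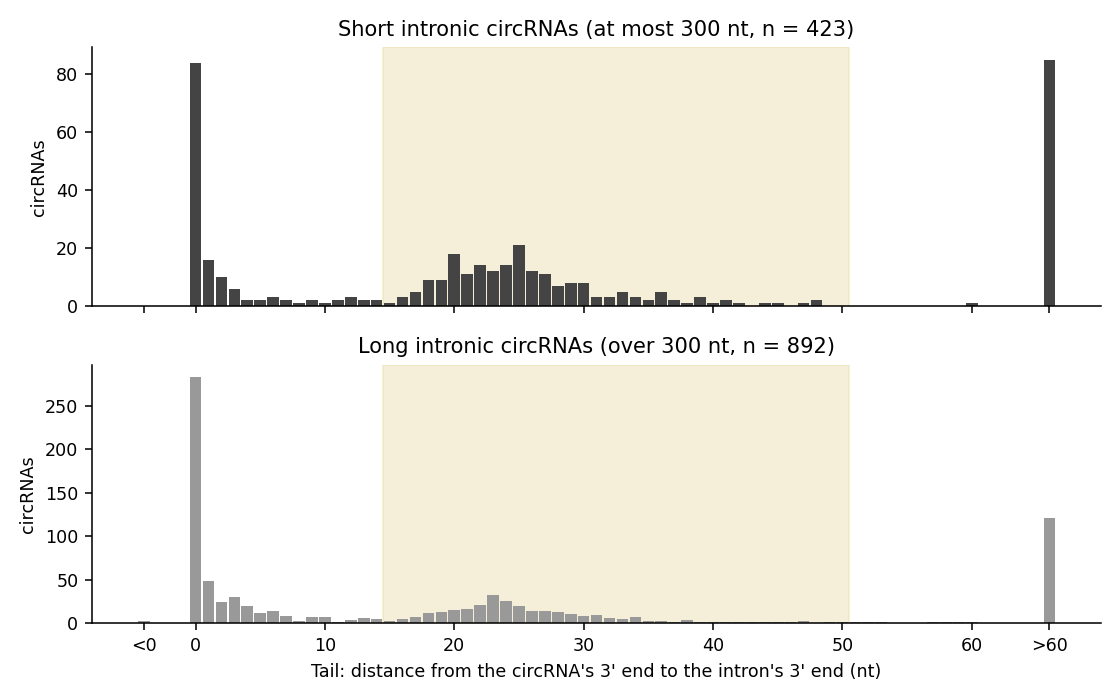
Number of circRNAs (y axis) at each tail length in nt (x axis, with a first bar for ends beyond the intron and a last bar for tails over 60 nt) for the 423 short (top) and the 892 long intronic circRNAs (bottom). The shaded range is 15 to 50 nt, where 199 short circRNAs lie around 25 nt, and the bar at 0 nt holds 84 short and 283 long ones.

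These differences between short and long circRNAs were seen within each library. Of the short intronic circRNAs detected in a library, 28.9% ± 5.12 (SD, n = 6 libraries) covered the whole intron, against 47.6% ± 7.39 (SD, n = 6) of the long ones, a difference of −18.7 percentage points that was negative in 6 of 6 libraries (exact sign-flip permutation test, two-sided p = 0.0313, adjusted p = 0.0417 over 4 comparisons). A tail of 15 to 50 nt was found in 47.9% ± 8.41 (SD, n = 6) of the short and 32.6% ± 8.16 (SD, n = 6) of the long ones, higher by 15.3 percentage points and in 6 of 6 libraries (p = 0.0313, adjusted p = 0.0417 by the same exact test, a comparison added after the tails had been seen). The p of 0.0313 is the smallest that 6 libraries can give. Span and tail add up to the length of the intron, so the limit on span is not independent of the tail. These 2 tests therefore cannot show a difference beyond what that limit brings, and no conclusion is drawn from them. When circRNAs were grouped by the length of the intron instead, at a limit of 300 nt, the difference in the whole-intron share was −5.03 percentage points and no longer passed (exact test, p = 0.0625). The difference in tails of 15 to 50 nt was then 24.6 percentage points (exact test, p = 0.0313). Intron length includes the tail, so this limit bounds the tail as well and cannot decide the question either. Grouped by span, with only tails of 0 to 5 and 15 to 50 nt kept, means of 62.1% of the short and 40.5% of the long circRNAs had the latter (exact test, p = 0.0313). That split still uses the limit on span. The order of the 2 classes among short circRNAs also varied between libraries.

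**Figure D2:**
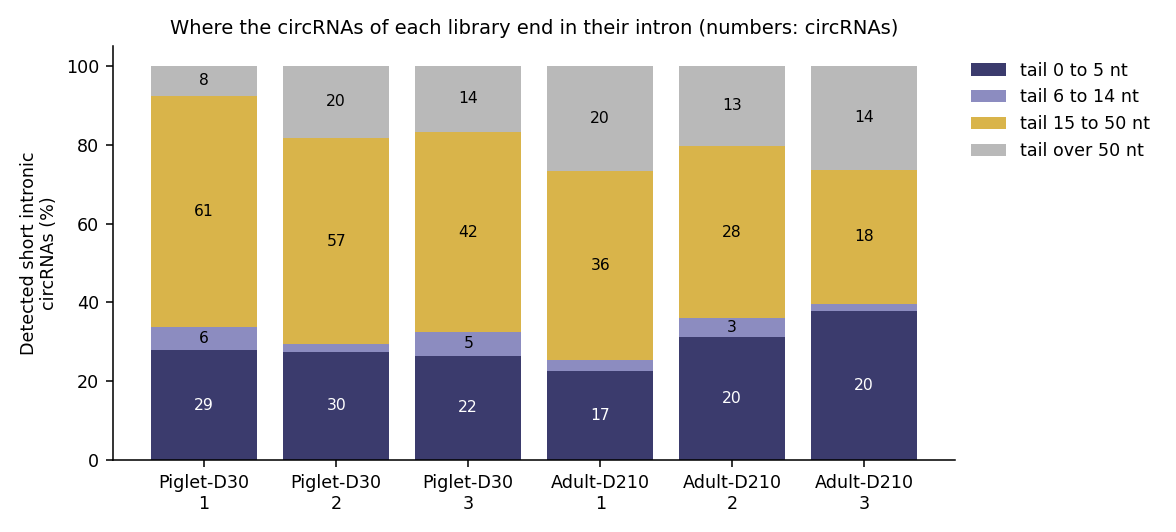
Share of the short intronic circRNAs detected in each library (y axis, percent) by tail class, with the number of circRNAs written in the larger segments. Tails of 15 to 50 nt make up the largest class in the 3 Piglet-D30 libraries and in Adult-D210 replicates 1 and 2, and in Adult-D210 replicate 3 whole-intron circRNAs (20) outnumber them (18).

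Abundance was low. The 423 short intronic circRNAs had 869 of the 6299 intronic back-splice reads, a mean of 2.05 and a median of 1 read each over the 6 libraries. A single read was the only support of 233 (55.1%), 108 had 2 reads, 76 had 3 to 9 and 6 (1.42%) had 10 or more. Among the long ones, 490 (54.9%) had a single read and 16 (1.79%) had 10 or more, whereas of the 458 intronic circRNAs with a shared end from genes other than PTBP1 and MOV10L1, 40 (8.73%) had 10 or more. A library had to hold 3 reads of a circRNA for it to lie above what a count of 0 allows, or 0.0610 to 0.0803 reads per 1000000 mapped reads, and 66 short intronic circRNAs reached 3 reads in a library. Such floors cover counting error only, as the reads carried no molecular identifiers and may be copies of the same molecule. Those with a tail of 15 to 50 nt had 477 reads, a mean of 2.40 and a median of 2 each, and those covering the whole intron had 221, a mean of 1.84 and a median of 1. Per library, a detected short intronic circRNA had 1.75 ± 0.235 reads (SD, n = 6 libraries) and a detected long one 2.12 ± 0.361 (SD, n = 6), a difference of −0.367 that was negative in 6 of 6 libraries (exact sign-flip permutation test, two-sided p = 0.0313, adjusted p = 0.0417). The call rested on 2 abundant long circRNAs, ciRNA79 and ciRNA80 on chromosome 6, with 141 and 148 reads. Both spanned 315 nt of an intron of 335 nt. The reads of ciRNA79 were 60, 19 and 13 in Piglet-D30 against 26, 12 and 11 in Adult-D210, and those of ciRNA80 were 60, 10 and 16 against 26, 27 and 9, so that 2 libraries had equal reads and 4 did not. Whether they are copies of the same locus was not tested. Without them the long circRNAs had 1.85 ± 0.229 reads (SD, n = 6), and the difference was −0.105, negative in 5 of 6 libraries, and no longer passed (exact test, p = 0.219). With the limit at 350 nt, where both counted as short, the difference was 0.341 (exact test, p = 0.0625), and without them −0.0907 (exact test, p = 0.156).

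Recurrence between libraries was rare. Reads in 1 library only were found for 379 short intronic circRNAs (89.6%), in 2 libraries for 31, in 3 for 8, in 4 for 3, in 5 for 1 and in all 6 for 1. The 44 seen in at least 2 libraries were 10.4%, against 8.63% of the long intronic circRNAs and 28.2% of the 458 with a shared end. Of the 379, 146 had at least 2 reads in their 1 library and 10 had at least 5. Of these 10, 7 were in Piglet-D30 replicate 1, and 1 each in Piglet-D30 replicate 2 and Adult-D210 replicates 1 and 3. Of the 108 circRNAs with 2 reads in all, 11 had them in different libraries. By tail class, 28 of 199 (14.1%) with a tail of 15 to 50 nt and 13 of 120 (10.8%) that covered the whole intron were seen in at least 2 libraries, and 2 of 86 (2.33%) with a tail over 50 nt, a difference that was not tested. Among the long ones the shares of these classes were 8.01%, 10.5% and 7.81%, so the order was not the same. Libraries of the same stage shared 3 to 15 short intronic circRNAs per pair and libraries of different stages 2 to 11. Of those detected in a library, 22.2% ± 3.14 (SD, n = 6 libraries) were seen in another, against 19.96% ± 3.53 (SD, n = 6) of the long ones, higher in 4 of 6 libraries by 2.19 percentage points on average (exact sign-flip permutation test, two-sided p = 0.25, adjusted p = 0.25). At a limit of 350 nt the difference was 3.88 (exact test, p = 0.0313).

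The circRNA seen in all libraries was ciRNA419 of TRMT2A, a methyltransferase of transfer RNA, at chr14:55130017-55130220 on the minus strand, 204 nt in an intron of 224 nt. It had 15, 11 and 3 reads in Piglet-D30 replicates 1 to 3 and 15, 8 and 3 in Adult-D210 replicates 1 to 3, which is 6.33% of all reads of the short intronic circRNAs. Both stages thus held a high, an intermediate and a low library, and the groups overlapped fully. As SRPBM, the reads scaled to mapped reads and read length by the authors, its mean level was 1.61 ± 1.11 (SD, n = 3) in piglets against 1.25 ± 0.814 (SD, n = 3) in adults. Next came ciRNA52 of HSF4, a heat shock transcription factor known from lens development, at chr6:25085762-25085987 on the minus strand, which covered its whole intron of 226 nt. Its reads were 1, 7 and 0 in Piglet-D30 against 2, 7 and 2 in Adult-D210, so that replicate 2 was highest at both ages. CPEB1 binds polyadenylation elements in messenger RNA and controls translation in germ cells. Its ciRNA469 (chr7:57858201-57858488, plus strand, tail 23 nt) had 0, 4 and 5 reads in Piglet-D30 against 3, 0 and 1 in Adult-D210. The highest libraries were thus from piglets, with 1 piglet and 1 adult library at 0. PRPF40B encodes a splicing factor that works with the U1 particle, and its ciRNA514 (chr5:15996841-15997056, plus strand, tail 19 nt) had 0, 4 and 0 reads in Piglet-D30 against 5, 1 and 0 in Adult-D210, again with overlap.

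The other 2 with at least 10 reads leaned on 1 library. CHD5 is a chromatin remodeller known for its part in the replacement of histones in spermatids, and its ciRNA82 (chr6:61953675-61953910, minus strand, tail 19 nt) had 9, 3 and 0 reads in Piglet-D30 against 2, 0 and 0 in Adult-D210. TRRAP is a scaffold of histone acetyltransferase complexes, and its ciRNA145 (chr3:6047259-6047515, plus strand, tail 12 nt) had 12 reads in Piglet-D30 replicate 1 and 0 in the other 5 libraries. In both, Piglet-D30 replicate 1 was highest and another piglet library had no read, so the groups overlapped. Reads in 4 libraries were also found for ciRNA313 of UBE2O, a ubiquitin-conjugating enzyme, with 1, 2 and 3 in Piglet-D30 against 0, 0 and 1 in Adult-D210. The same number of libraries was reached by ciRNA67 of RUVBL2, an ATPase of chromatin remodelling complexes, with 2, 1 and 0 in Piglet-D30 against 2, 1 and 0 in Adult-D210. For UBE2O the highest libraries were from piglets, and for RUVBL2 both stages held the same reads.

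**Figure D3:**
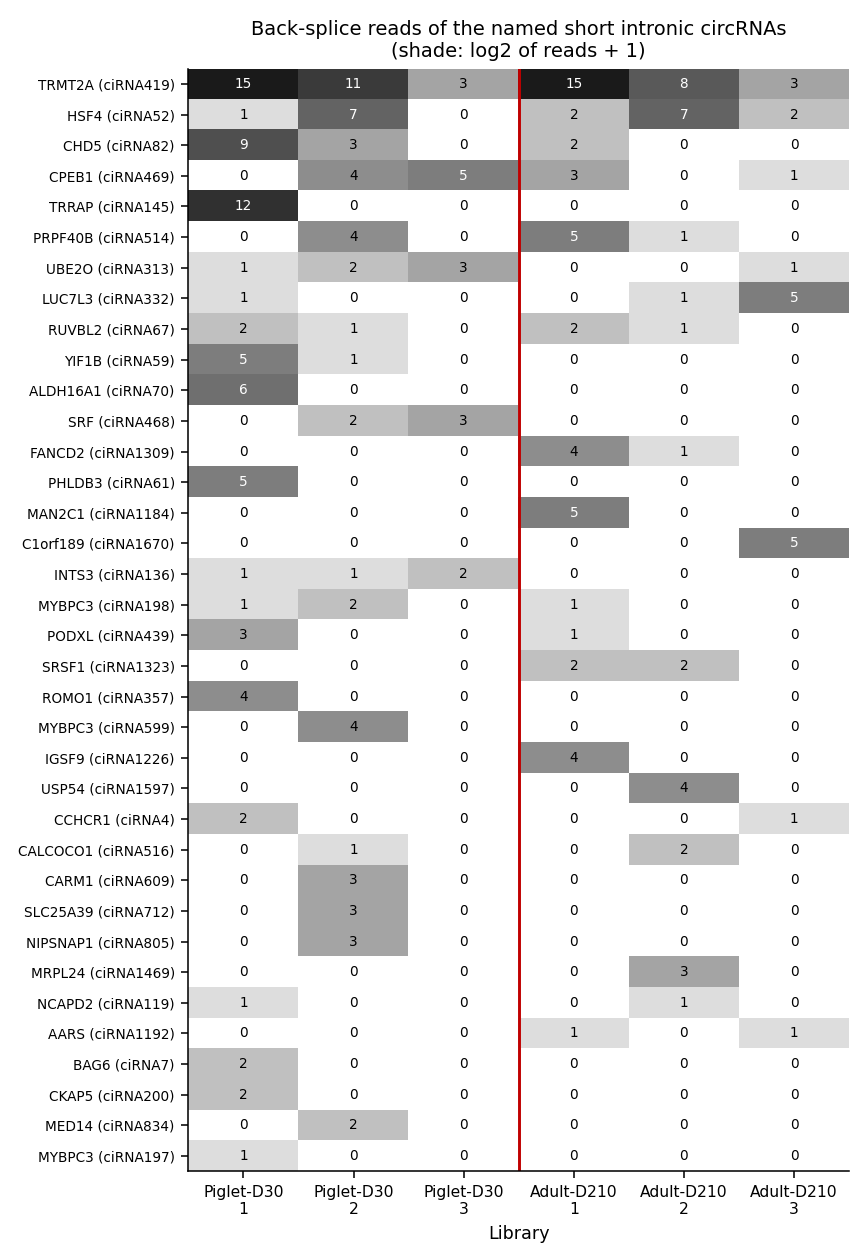
Back-splice reads of the named short intronic circRNAs (rows, host gene and circRNA number, apart from the shortest and the longest) in each library (columns), with darker shades for more reads on a log2 scale of reads plus 1. Only ciRNA419 of TRMT2A has reads in all 6 libraries, and most rows have reads in 1 or 2.

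By stage, 242 short intronic circRNAs (57.2%) had reads in Piglet-D30 libraries only, 153 (36.2%) in Adult-D210 libraries only and 28 (6.62%) in both. Over all 1798 intronic circRNAs the shares were 55.3% for Piglet-D30 only and 34.9% for Adult-D210 only, so the split was close to that background. The numbers of short ones at 1 stage only shifted with single libraries. They were 158 and 160 without Piglet-D30 replicate 2 and 251 and 95 without Adult-D210 replicate 1. Few of the circRNAs seen at 1 stage recurred within it. Of the 242 in Piglet-D30 only, 13 were seen in at least 2 libraries and 2 in all 3, and of the 153 in Adult-D210 only, 3 were seen in 2 libraries and 0 in all 3. The 2 in all piglet libraries were ciRNA136 of INTS3, a subunit of the Integrator complex, with 1, 1 and 2 reads, and ciRNA328 of ENSSSCG00000017489 (PSMD3, a proteasome subunit, in the gene name table), with 1 in each. The 3 in 2 adult libraries belonged to FANCD2, SRSF1 and AARS. Further circRNAs with many reads in Piglet-D30 only were ciRNA70 of ALDH16A1 with 6 and ciRNA61 of PHLDB3 with 5, each in replicate 1 alone, ciRNA59 of YIF1B, a membrane trafficking protein, with 5 in replicate 1 and 1 in replicate 2, and ciRNA468 of SRF, a transcription factor of actin cytoskeleton genes, with 2 and 3 in replicates 2 and 3. Another 5 had 5 reads as well, each in 1 library. In Adult-D210 only, the most reads were 5, in ciRNA1309 of FANCD2, a protein of DNA crosslink repair, with 4 in replicate 1 and 1 in replicate 2. The same number was reached by ciRNA1184 of MAN2C1 (replicate 1) and ciRNA1670 of C1orf189 (replicate 3). At 4 reads were ciRNA1226 of ENSSSCG00000006396 (IGSF9 in the gene name table, replicate 1), ciRNA1597 of USP54 (replicate 2) and ciRNA1323 of SRSF1, a splicing factor, with 2 reads in each of replicates 1 and 2.

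All Piglet-D30 libraries held more short intronic circRNAs than all Adult-D210 libraries. Detected were 104, 109 and 83 in the Piglet-D30 libraries against 75, 64 and 53 in the Adult-D210 libraries. The long ones leaned the same way, with 202, 212 and 195 against 125, 150 and 130. So did all intronic circRNAs, with 456, 481 and 426 against 324, 327 and 279. For the short ones the means were 98.7 ± 13.8 (SD, n = 3) and 64.0 ± 11.0 (SD, n = 3), a difference of −34.7 (exact permutation test, two-sided p = 0.1, adjusted p = 0.14 over 7 comparisons). A test of 3 libraries against 3 cannot give a p below 0.1, so none of these comparisons could pass a threshold of 0.05. Reads of short intronic circRNAs per 1000000 mapped reads were 6.02, 4.31 and 3.06 in Piglet-D30 against 2.85, 2.47 and 1.70 in Adult-D210. The lowest piglet library, replicate 3, was thus close to the highest adult library, replicate 1. The means were 4.46 ± 1.49 (SD, n = 3) and 2.34 ± 0.584 (SD, n = 3), 1.91-fold higher in Piglet-D30 (exact permutation test, p = 0.1, adjusted p = 0.14), and the difference of −2.12 was −1.35 without Piglet-D30 replicate 1. It was −4.48 with shared ends kept in and −3.58 at a span limit of 350 nt, and in both settings the groups overlapped (exact permutation tests, p = 0.2 each). The scale mattered. Per 1000 back-splice reads of the table, the values were 6.80, 10.19 and 7.14 in the piglet libraries against 5.94, 6.99 and 6.53 in the adult ones. The ratio of the means was then 1.24 and the groups overlapped, as Piglet-D30 replicate 1 lay below Adult-D210 replicate 2 (exact permutation test, p = 0.2, difference −1.56). For the long intronic circRNAs the ratio of the means was 1.87, and whether the ratios differ was not tested. Fewer cells of a type and less RNA per cell cannot be told apart in these tissue samples. As a share of intronic back-splice reads, the short ones made up 14.4% ± 1.06 (SD, n = 3) in Piglet-D30 against 12.7% ± 0.484 (SD, n = 3) in Adult-D210, again without overlap (exact permutation test, p = 0.1, adjusted p = 0.14), but with shared ends kept in the difference turned from −1.72 to 2.49 percentage points (exact permutation test, p = 0.8). At span limits of 250 and 350 nt it was −1.50 and −3.30, and the groups overlapped (exact permutation tests, p = 0.2 and 0.4). Reads per detected circRNA were 1.83 ± 0.295 (SD, n = 3) and 1.67 ± 0.175 (SD, n = 3) and overlapped (exact permutation test, p = 0.5, adjusted p = 0.583), and without Piglet-D30 replicate 1 the difference of −0.165 turned to 0.00148.

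**Figure D4:**
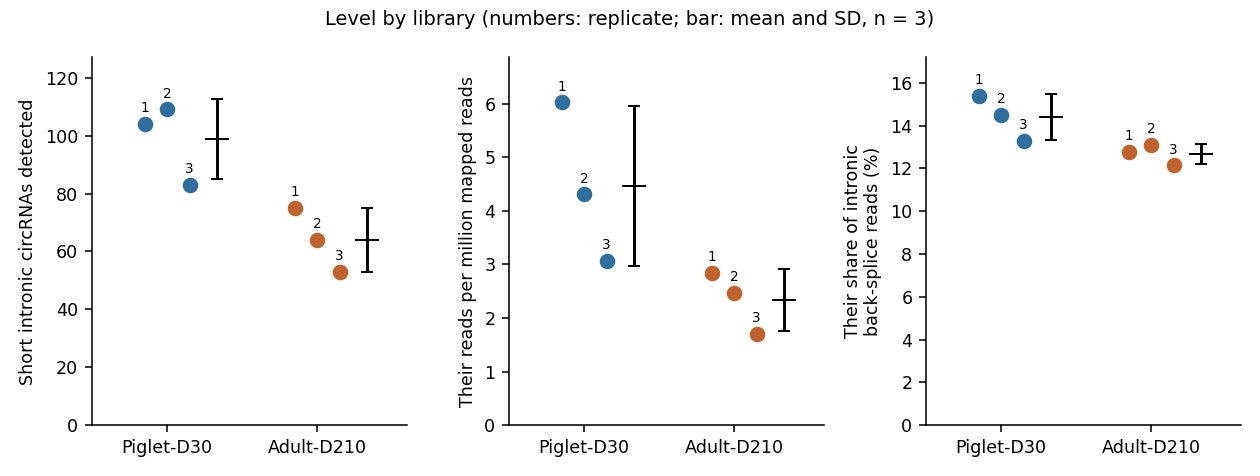
Short intronic circRNAs detected per library, their reads per 1000000 mapped reads and their share of intronic back-splice reads in percent (y axes) in the Piglet-D30 and Adult-D210 groups (x axis). Points are libraries with their replicate number, and bars give mean and SD (n = 3). In each panel the lowest Piglet-D30 library lies above the highest Adult-D210 library.

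The shares of the tail classes among the detected circRNAs were also compared between the stages. With a tail of 15 to 50 nt were 61, 57 and 42 of those detected in the Piglet-D30 libraries against 36, 28 and 18 of those in the Adult-D210 libraries. This was 53.8% ± 4.25 (SD, n = 3) against 41.9% ± 7.20 (SD, n = 3), without overlap of the groups (exact permutation test, two-sided p = 0.1, adjusted p = 0.14). With shared ends kept in, the difference of −11.9 percentage points was −6.72 (exact permutation test, p = 0.3). Tails over 50 nt were found in 8, 20 and 14 in Piglet-D30 against 20, 13 and 14 in Adult-D210, or 14.3% ± 5.77 (SD, n = 3) against 24.5% ± 3.60 (SD, n = 3), also without overlap (exact permutation test, p = 0.1, adjusted p = 0.14). The difference of 10.16 percentage points in tails over 50 nt was 6.86 without Piglet-D30 replicate 1 and 6.43 with shared ends kept in, and at a span limit of 350 nt it was 8.30 with overlap (exact permutation test, p = 0.2). At 250 nt, tails of 15 to 50 nt overlapped (exact permutation test, p = 0.2). The long circRNAs leaned the same way, with tails over 50 nt in 13.4%, 12.3% and 11.3% of those detected in the piglet libraries against 16.8%, 17.3% and 14.6% in the adult ones, also without overlap, and tails of 15 to 50 nt in means of 35.6% against 29.5%, with overlap. Both comparisons were added after the tails had been seen. The share that covered the whole intron was 27.3% ± 0.715 (SD, n = 3) in Piglet-D30 against 30.6% ± 7.56 (SD, n = 3) in Adult-D210 and overlapped (exact permutation test, p = 0.7, adjusted p = 0.7), and without Adult-D210 replicate 3 the difference of 3.25 percentage points turned to −0.346.

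A change with age could be tested for few single circRNAs. Of the 423, 6 had the 10 reads over the 6 libraries that the test required, and 417 were not tested. By edgeR's quasi-likelihood test over 1341 circRNAs, 0 of the 6 were called at the limits used (adjusted p below 0.05, log2 fold change of 1 or more in either direction), against 111 of all tested (8.28%). Of the 1341, only 71 were intronic, and 2 of these 71 were called. At an unadjusted p under 0.05 and the same limit on the fold change, the number was 0 of the 6 as well, by edgeR (324 of all tested, 24.2%) and by DESeq2 (205, 15.3%). With the read filter lowered to 1 read, all 423 were tested by edgeR and 0 were called, against 128 of 4350 (2.94%). At an unadjusted p under 0.05, 1 passed, against 351 (8.07%). It was ciRNA145 of TRRAP, with all its 12 reads in Piglet-D30 replicate 1. As 233 of the 423 had 1 read and 108 had 2, most could hardly be called, and no conclusion is drawn from the 0. The log2 fold changes of Adult-D210 against Piglet-D30 were −2.07 for ciRNA82 of CHD5 (standard error 1.50, edgeR adjusted p = 0.394), −0.85 for ciRNA469 of CPEB1 (1.31, 0.724), 0.76 for ciRNA52 of HSF4 (1.21, 0.731) and 0.79 for ciRNA514 of PRPF40B (1.56, 0.790). For ciRNA419 of TRMT2A, the one with the most reads, the value was 0.15 (standard error 0.69, edgeR adjusted p = 0.911), and −0.33 with mapped reads as library size. Its sign also turned without Piglet-D30 replicate 3 (−0.19) and without Adult-D210 replicate 1 (−0.15). The value for ciRNA52 was 3.02 without Piglet-D30 replicate 2 and −0.13 without Adult-D210 replicate 2. For ciRNA82, leaving out Piglet-D30 replicate 1 left fewer than 10 reads and no test, and leaving out Adult-D210 replicate 1 left no adult read, while without each of the other libraries the value was −2.55 to −1.59. The values for ciRNA469 ran from −1.81 (without Adult-D210 replicate 1) to −0.32 (without Adult-D210 replicate 2) and those for ciRNA514 from 0.15 (without Piglet-D30 replicate 1) to 1.25 (without Adult-D210 replicate 3), over the 4 and 3 of 6 libraries whose removal left the 10 reads that the test required. For ciRNA514 these libraries held no read of it, and for ciRNA469 neither piglet library with its reads was among them. The ranges therefore do not show how far the values depend on the libraries not removed. Over all tested circRNAs the median log2 fold change was −0.42, and −0.90 with mapped reads as library size. For ciRNA145 of TRRAP, without a read in Adult-D210, no fold change is given (edgeR adjusted p = 0.252).

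The short intronic circRNAs came from 396 host genes. Of these 370 had 1 circRNA, 25 had 2, and MYBPC3, which encodes a myosin-binding protein of heart muscle, had 3. The 3 of MYBPC3 lay in different introns on chromosome 2. Of them, ciRNA198 (whole intron, 289 nt) had 1, 2 and 0 reads in Piglet-D30 against 1, 0 and 0 in Adult-D210, ciRNA599 had 4 reads in Piglet-D30 replicate 2, and ciRNA197 had 1 in Piglet-D30 replicate 1. All 3 were thus highest in piglet libraries, from 1 to 4 reads. GO terms were listed for the hosts of 391 circRNAs, and 10 lists were made from the words of the terms, in which 184 of them fell. Of the lists, 5 (cilium and centrosome, mitochondrion, DNA repair, steroid and sterol, cell junction and adhesion) held no circRNA with enough reads for the test of change with age, and the other 5 held 1 to 3, so the lists are described by their counts. Over all 391, 224 were seen in Piglet-D30 only, 141 in Adult-D210 only and 26 at both stages. As most were seen in 1 library, such splits shift with single libraries. Of the 391, without Piglet-D30 replicate 2, 144 were in Piglet-D30 only against 148 in Adult-D210 only, and without Adult-D210 replicate 1 the numbers were 233 and 89. A median of 1 read per circRNA held in 8 of the 10, with 1.5 for steroid and sterol and 2 for cell junction and adhesion.

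The list of chromatin genes was the largest, with 45 circRNAs (11.5% of those with GO terms, against 9.77% of the other intronic circRNAs) and 120 reads, and held those of HSF4, CHD5 and TRRAP. For all lists, the other intronic circRNAs are all those with GO terms outside the 423. They include circRNAs with shared ends and those of PTBP1 and MOV10L1 (25 before the need for a GO term), which the rule left out of the short ones. Differences between these shares were not tested. Of the 45, 28 were seen in Piglet-D30 only, 12 in Adult-D210 only and 5 at both stages. Without Piglet-D30 replicate 1 the numbers for 1 stage only were 15 and 13. RNA processing had 26 (6.65% against 9.13%) with 113 reads, of which TRMT2A had 55. Of the 26, 14 were seen in Piglet-D30 only, 7 in Adult-D210 only and 5 at both stages. The numbers for 1 stage only were 8 and 9 without Piglet-D30 replicate 2 and 14 and 4 without Adult-D210 replicate 1. In at least 2 libraries were 8 of the 26 (30.8%), against 10.5% of all 391, a difference that was not tested. Beside PRPF40B the RNA processing list held ciRNA332 of LUC7L3, a factor of the U1 particle, with 1, 0 and 0 reads in Piglet-D30 against 0, 1 and 5 in Adult-D210. This circRNA of 245 nt lay at the start of an intron of 2919 nt, with a tail of 2674 nt. DNA repair had 23 (13 in Piglet-D30 only, 9 in Adult-D210 only, 1 in both), among them those of FANCD2, RUVBL2 and INTS3. The DNA repair numbers for 1 stage only were 7 and 9 without Piglet-D30 replicate 1 and 13 and 5 without Adult-D210 replicate 1.

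Genes with germ cell terms hosted 18 short intronic circRNAs, which was 4.60% of those with GO terms, against 4.61% of the other intronic circRNAs. Of these 8 were seen in Piglet-D30 only, 8 in Adult-D210 only and 2 at both stages. The numbers for 1 stage only were 4 and 8 without Piglet-D30 replicate 2 and 8 and 4 without Adult-D210 replicate 1. After CPEB1, the named ones were ciRNA119 of ENSSSCG00000000693 (NCAPD2, a condensin subunit, in the gene name table), with 1 read in Piglet-D30 replicate 1 and 1 in Adult-D210 replicate 2, and ciRNA7 of BAG6, a chaperone needed in meiosis, with 2 reads in Piglet-D30 replicate 1. Cilium and centrosome genes had 21 (5.37% against 8.74%), 10 in Piglet-D30 only, 9 in Adult-D210 only and 2 in both. Without Piglet-D30 replicate 2 the first 2 numbers were 4 and 9, and without Adult-D210 replicate 1 they were 10 and 5. The list included ciRNA4 of CCHCR1, a centrosome protein, with 2 reads in Piglet-D30 replicate 1 and 1 in Adult-D210 replicate 3, and ciRNA200 of CKAP5, which promotes microtubule growth, with 2 reads in Piglet-D30 replicate 1. Differences of the lists between the stages were not tested.

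Ubiquitin genes had 35, of which 16 were seen in Piglet-D30 only, 18 in Adult-D210 only and 1 in both, with ciRNA1597 of USP54 at 4 reads in Adult-D210 replicate 2. The lean turned with 1 library, to 17 and 8 without Adult-D210 replicate 3, and was 8 and 18 without Piglet-D30 replicate 1. The mitochondrial list also had 35, split 22 and 13 between the stages with 0 in both, and each was seen in 1 library, as were 89.6% of all short intronic circRNAs. Without Piglet-D30 replicate 2 the split was 11 and 13, and without Adult-D210 replicate 2 it was 22 and 7. Its highest was ciRNA357 of ROMO1, a small protein of the inner membrane, with 4 reads in Piglet-D30 replicate 1. Of the 5 with 3 reads, 3 lay in Piglet-D30 replicate 2, among them ciRNA712 of SLC25A39, a mitochondrial carrier, and ciRNA805 of NIPSNAP1, and 2 in adult libraries. Translation had 28 (18 in Piglet-D30 only, 9 in Adult-D210 only, 1 in both, but 11 and 9 for 1 stage only without Piglet-D30 replicate 1 and 18 and 4 without Adult-D210 replicate 2), with ciRNA1469 of MRPL24, a mitochondrial ribosomal protein, at 3 reads in Adult-D210 replicate 2 and ciRNA1192 of AARS, the alanine transfer RNA ligase, at 1 read in each of Adult-D210 replicates 1 and 3. Cell junction and adhesion had 25, with 17, 7 and 1, among them those of SRF and SRSF1 and ciRNA439 of PODXL, a surface sialomucin, with 3 reads in Piglet-D30 replicate 1 and 1 in Adult-D210 replicate 1. Its split was 18 and 2 without Adult-D210 replicate 1 and 10 and 8 without Piglet-D30 replicate 1. Of these 25, 4 (RECQL4, SRSF1, CASC3 and MUS81) were listed only through terms on junctions in nucleic acids. Steroid and sterol terms had 6, with 5 in Piglet-D30 only, 0 in Adult-D210 only and 1 in both. This split rested on Piglet-D30 replicate 2, which held 5 of the 6 and 8 of their 11 reads. Without it, 1 of the 5 would be left, and replicate 3 held 0. The one in both was ciRNA516 of CALCOCO1, a coactivator of nuclear receptors, with 1 read in Piglet-D30 replicate 2 and 2 in Adult-D210 replicate 2. The others included ciRNA609 of CARM1, an arginine methyltransferase, and ciRNA834 of MED14, a Mediator subunit, with 3 and 2 reads in Piglet-D30 replicate 2.

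**Figure D5:**
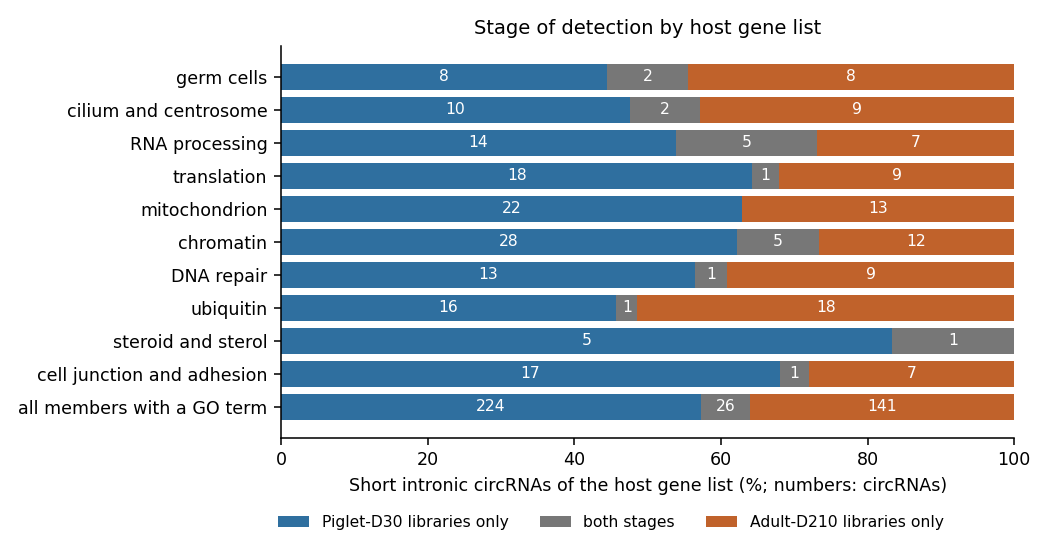
Share of the short intronic circRNAs of each host gene list (x axis, percent) with reads in Piglet-D30 libraries only, at both stages, or in Adult-D210 libraries only, with their numbers in the bars and all 391 with a GO term in the last bar. Few circRNAs of any list were seen at both stages, with 5 of 26 for RNA processing and 0 of 35 for the mitochondrion.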

How the data were processed

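Testis RNA of 3 Piglet-D30 and 3 Adult-D210 Landrace boars was sequenced as read pairs of 150 nt, 1 library per boar by the study's design. The labels do not name the boars, so p-values measure the spread between these samples. After trimming with Cutadapt and mapping with TopHat2, the authors called circRNAs through TopHat-Fusion and CIRCExplorer2 and deposited, for each circRNA in each library, the raw count of its back-splice reads. Beside it the authors deposited SRPBM, a signal equal to the count scaled by mapped reads and read length, from which mapped reads were recovered. The submitters' processing notes name the build Sscrofa10.2, in which all coordinates are given, counted from 1.

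The circRNAs and lists were chosen with earlier results of these data known. Differential expression was fitted over the whole table with edgeR 4.0.16 in R 4.3.3 (TMM on back-splice totals, at least 10 reads over the 6 libraries, robust quasi-likelihood F test, Benjamini-Hochberg adjustment). The code was tested on simulated data. Group means of library values were compared by exact permutation tests (two-sided), and short with long circRNAs by sign flips over libraries, in Python 3.11.15 with SciPy 1.17.1. Alternatives were DESeq2 1.42.0, other scalings, filters, span and tail limits, a block for the replicate number and each library left out. The stage and length comparisons of further tail classes, grouping by intron length, tails of 2 classes only, and the removal of single abundant circRNAs were added after the data had been seen.

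Named are circRNAs with at least 10 reads or reads in at least 4 libraries, the 5 with the most reads at 1 stage only, up to 3 with the most reads per list, the shortest, the longest, and the host with the most, with ties broken by more libraries and then by the lower number. Any other (ciRNA79, ciRNA80 and ciRNA328) was chosen after its values were seen. Hosts of 111 circRNAs are listed by Ensembl identifier, and 66 of these matched a gene name table. Sequences of the circRNAs were not analysed here.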

Additional observations from a re-analysis of the deposited data

How the results depend on the processing

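The 7 comparisons of stages could not reach a p below 0.1 with all libraries or with 1 left out, so their p-values say nothing of stability. With each library left out in turn, the difference of Adult-D210 minus Piglet-D30 was −42.5 to −29.2 in circRNAs detected, −2.83 to −1.35 in reads per 1000000 mapped reads, −2.28 to −1.22 percentage points in the share of intronic reads, −0.279 to 0.00148 in reads per detected circRNA, −0.346 to 7.19 percentage points in the whole-intron share, −15.0 to −7.97 in tails of 15 to 50 nt and 6.86 to 12.2 in tails over 50 nt. With shared ends kept in, the share of intronic reads (2.49) and the reads per detected circRNA (0.158) changed direction, while reads per 1000000 mapped reads (−4.48), tails of 15 to 50 nt (−6.72), tails over 50 nt (6.43) and the whole-intron share (1.84) moved by over 1.5 times, and the cause was not tested. A span of up to 350 nt did so for reads per 1000000 mapped reads (−3.58) and the share of intronic reads (−3.30), and a floor of 2 reads for circRNAs detected (−19.7). In reads per 1000000 mapped reads the groups overlapped at 350 nt and with shared ends kept in. Tail limits of 0 and 14 nt gave 0.529 and 1.78 for the whole-intron share. Per 1000 back-splice reads the difference in reads was −1.56, with overlap. The comparisons of short and long circRNAs kept their direction without each library, at −20.3 to −16.9 percentage points in the whole-intron share, −0.412 to −0.319 in reads per detected circRNA and 13.2 to 16.7 in tails of 15 to 50 nt, each with an exact p of 0.0625, the smallest that 5 libraries can give. The share seen in another library was 1.01 to 3.28 percentage points higher, 3.88 at limits of 250 and 350 nt and 4.36 among circRNAs with at least 2 reads, which gave −0.709 for reads per detected circRNA. Grouping by intron length, which also limits the tail, gave −5.03 for the whole-intron share and 24.6 for tails of 15 to 50 nt. A limit of 350 nt gave 0.341 for reads per detected circRNA, or −0.0907 without ciRNA79 and ciRNA80. At 300 nt, the difference without these 2 long circRNAs was −0.105, so that call rests on them.

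Over all circRNAs tested by edgeR, the 111 calls became 39 to 81 with 1 library left out (42 without Piglet-D30 replicate 3, 39 without Adult-D210 replicate 1 and 59 without Adult-D210 replicate 2). Same-numbered libraries of the groups did not deviate together (r = 0.065, −0.016 and −0.026 across circRNAs), so the numbers do not pair samples, and the replicate block, with 33 calls, is given for completeness. In each of these settings 4 to 6 short intronic circRNAs were tested and 0 were called, and so few cannot show stability. Of the short intronic circRNAs, 233 rest on 1 read, so that their detection in a library is a matter of that read.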
